A study of Homo sapiens with 9 samples.

Results

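HOX cluster genes were the nearest gene of 7 of the 34575 ARID peaks called in HepG2 cells. The peaks were chosen by the nearest gene the authors deposited, which had to start with HOXA, HOXB, HOXC or HOXD, antisense genes of the clusters included. Of the 7 peaks, 4 were among 12852 ARID1A peaks, 1 was among 8728 ARID1B peaks and 2 were among 12995 ARID2 peaks. They lay at 5 separate sites, because the 3 ARIDs overlapped at 1 of them. That site and 1 further ARID2 peak belonged to HOXA-AS2, and the other 3 sites, each with ARID1A alone, belonged to HOXB9, HOXD12 and HOXD1.

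Chromatin was taken from HepG2 cells, 1 established line from a human liver tumour, fixed with formaldehyde and cut with micrococcal nuclease. It was immunoprecipitated with antibodies against ARID1A, ARID1B, ARID2 or SNF5 and sequenced (ChIP-seq), which gave 2 libraries per antibody, numbered as replicates in the labels, plus a single input library. ARID1A, ARID1B and ARID2 are alternative subunits that set apart forms of the SWI/SNF chromatin remodelling complex, and SNF5 is a core subunit. A peak is a stretch of the genome where the authors called enriched reads, and each subunit has 1 peak list called on both replicates merged. The values therefore carry no replicate error, the depth behind each list is unknown, and a subunit cannot be told apart from its antibody and depth. Peaks and genes of 1 list are not replicates, so counts are set beside the whole list without a test, and Wilson 95% intervals cover counting error only.

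HOX genes encode homeodomain transcription factors that set position along the body axis, and they lie in 4 clusters in which gene order follows the order of expression from head to tail. Trithorax proteins keep the clusters active and Polycomb proteins keep them silent, and SWI/SNF subunits were first placed in the trithorax group through fly mutants that counteract Polycomb at homeotic genes. The clusters also carry antisense and intergenic long non-coding RNAs, among them HOXA-AS2, which is transcribed from the strand opposite to HOXA3 and HOXA4.

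The sequences at the 5 sites are shown because they are the only places in the clusters where an ARID peak was called, and because their base composition differed. They were read from the GRCh37 reference, the assembly of hg19, on the plus strand, and capitals mark the bases within the called peak (for the site shared by all 3 ARIDs, the ARID1B peak, the narrowest of its peaks). Bases in an untranslated region were left out, which removed 43 bases of the 300-base window at the shared HOXA-AS2 site and 125 at HOXD1. What remains at the shared HOXA-AS2 site ends before the ARID1A peak begins, at chr7:27162204. The printed stretch of that site therefore lies in the ARID1B and ARID2 peaks and holds no base of the ARID1A peak.
HOXA-AS2, site of all 3 ARIDs, chr7:27161921-27162177: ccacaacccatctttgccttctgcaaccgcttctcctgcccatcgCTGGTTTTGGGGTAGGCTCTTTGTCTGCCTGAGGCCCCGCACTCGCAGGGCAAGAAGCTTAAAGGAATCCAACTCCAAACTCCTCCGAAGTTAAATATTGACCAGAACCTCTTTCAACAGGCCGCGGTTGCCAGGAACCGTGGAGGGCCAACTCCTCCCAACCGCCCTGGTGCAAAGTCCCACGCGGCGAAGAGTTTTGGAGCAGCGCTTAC
HOXA-AS2, ARID2 alone, chr7:27160206-27160505: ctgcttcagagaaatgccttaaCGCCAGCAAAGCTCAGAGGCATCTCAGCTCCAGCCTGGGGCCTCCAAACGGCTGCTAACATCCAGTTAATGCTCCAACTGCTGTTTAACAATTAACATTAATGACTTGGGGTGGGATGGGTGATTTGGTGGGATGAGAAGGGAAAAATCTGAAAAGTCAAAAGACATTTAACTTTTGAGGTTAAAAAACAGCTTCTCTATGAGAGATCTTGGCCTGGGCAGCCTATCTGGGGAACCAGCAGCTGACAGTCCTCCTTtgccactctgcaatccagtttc
HOXB9, ARID1A alone, chr17:46700498-46700797: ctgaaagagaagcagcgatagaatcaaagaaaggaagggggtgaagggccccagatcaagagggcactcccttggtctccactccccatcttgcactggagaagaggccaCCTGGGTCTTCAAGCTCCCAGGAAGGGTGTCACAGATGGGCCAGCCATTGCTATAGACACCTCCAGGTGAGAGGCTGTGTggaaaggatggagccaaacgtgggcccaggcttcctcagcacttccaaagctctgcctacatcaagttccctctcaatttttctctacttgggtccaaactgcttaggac
HOXD12, ARID1A alone, chr2:176962277-176962576: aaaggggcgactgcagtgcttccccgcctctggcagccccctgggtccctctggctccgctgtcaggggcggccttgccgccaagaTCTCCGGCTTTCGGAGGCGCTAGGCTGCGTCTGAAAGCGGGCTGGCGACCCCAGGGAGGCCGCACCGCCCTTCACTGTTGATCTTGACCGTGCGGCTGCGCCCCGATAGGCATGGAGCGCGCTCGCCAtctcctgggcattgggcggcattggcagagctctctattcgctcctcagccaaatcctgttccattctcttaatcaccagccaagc
HOXD1, ARID1A alone, chr2:177053221-177053395: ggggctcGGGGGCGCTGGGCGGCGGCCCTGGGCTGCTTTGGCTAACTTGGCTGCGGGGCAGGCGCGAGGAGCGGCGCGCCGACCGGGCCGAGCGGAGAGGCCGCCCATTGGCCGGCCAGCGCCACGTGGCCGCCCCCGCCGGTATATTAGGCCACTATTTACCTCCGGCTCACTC

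The printed HOXD1 stretch was 74.9% G and C and held 22 CpG in 175 bases, with an observed to expected CpG ratio of 0.902. At HOXD12 the window was 65.0% G and C and also held 22 CpG, in 300 bases, with a ratio of 0.7. The HOXB9 window and the window of the separate ARID2 peak at HOXA-AS2 each held 2 CpG in 300 bases, with ratios of 0.0914 and 0.121. The printed stretch of the shared HOXA-AS2 site, which leaves out the ARID1A peak, fell between these. It was 56.8% G and C and held 13 CpG in 257 bases, with a ratio of 0.644. In these windows CpG-dense sequence was present at both HOXD sites and, with a ratio near that of HOXD12, at the shared HOXA-AS2 site. It was nearly missing from the HOXB9 site and the separate ARID2 site. The windows include bases outside the peaks. Within the called peaks the HOXD12 ratio was higher, at 0.992, beside 0.608 to 0.731 for the peaks of the shared HOXA-AS2 site.

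HOXA-AS2 was the only HOX gene with peaks of all 3 ARIDs. The ARID2 peak was the widest, at 1133 bp (chr7:27161611-27162743), and lay 7 bp from the nearest annotated start by the deposited distance. Within it lay the ARID1A peak of 354 bp (chr7:27162204-27162557, 183 bp from the start) and the ARID1B peak of 255 bp (chr7:27161966-27162220, 28 bp from the start). The ARID1A and ARID1B peaks shared only 17 bp with each other, chr7:27162204-27162220, whose plus-strand sequence is given for its place under all 3 ARIDs.
Shared by ARID1A, ARID1B and ARID2: AGGAATTGTCTCCAACT

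These 17 bases lie in a 5′ untranslated exon of some HOXA3 transcripts, and the whole site is within the HOXA3 gene body. HOXA3 belongs to the anterior paralogues, and its closest annotated start was 2989 bp from the ARID1A peak, 2751 bp from the ARID1B peak and 1013 bp from the nearest ARID2 peak, a second and separate one described next. All 3 peaks lay wholly within 1 SNF5 peak of 1412 bp (chr7:27161484-27162895), whose score of 22 was above that of 63.6% of SNF5 peaks. The deposited class was promoter for all 3. The deposited chromatin state was active promoter for the ARID1A and ARID1B peaks and weak promoter for the wide ARID2 peak, although these overlap.

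**Figure D1:**
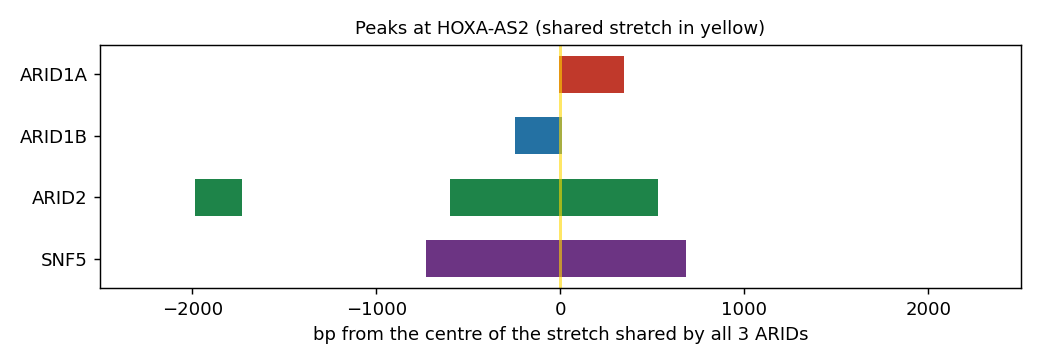
Peaks of ARID1A, ARID1B, ARID2 and SNF5 around the HOXA-AS2 site, with the distance in bp from the centre of the stretch shared by all 3 ARIDs (yellow) on the horizontal axis and 1 row per list. The ARID1A peak extends to the right of the shared stretch of 17 bp and the ARID1B peak to its left, both inside the wide ARID2 peak. All 3 of these peaks lie within the SNF5 peak, while the narrow ARID2 peak stands apart.

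The second ARID2 peak at HOXA-AS2 was 256 bp wide (chr7:27160228-27160483) and overlapped no other list. It lay 1000 bp from the SNF5 peak, 1482 bp from the ARID1B peak and 1720 bp from the ARID1A peak. It was a promoter peak, 198 bp from an annotated start, in the weak promoter state.

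In the HOXD cluster both peaks were of ARID1A and lay near its opposite ends. HOXD1, the most anterior gene of that cluster, had a promoter peak of 286 bp (chr2:177053228-177053513) that covered its start and touched exons of HOXD1 and of HAGLR, a long non-coding RNA on the other strand. Its deposited distance was 61 bp and its state was strong enhancer. Of its 286 bp, 100 bp lay in an SNF5 peak of 1549 bp (chr2:177051779-177053327), whose score of 18 exceeded that of 35.8% of SNF5 peaks. HOXD12, a posterior gene with a role in limb and digit patterning, had a distal peak of 128 bp (chr2:176962363-176962490) between HOXD13 and HOXD12. The peak lay 2029 bp from the nearest start by the deposited distance and was in the active promoter state. The SNF5 peak closest to it was 88290 bp away.

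The HOXB cluster held 1 peak, again of ARID1A. It was assigned to HOXB9, a posterior paralogue, but also lay within the gene body of HOXB7. The peak measured 80 bp (chr17:46700608-46700687) and lay in an intron 3185 bp from the nearest start. Its deposited state was strong enhancer. Only 12.0% of ARID1A peaks were narrower. No SNF5 peak was called within 205966 bp, no ARID1B peak within 171990 bp and no ARID2 peak within 207576 bp.

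No peak of any of the 4 lists was called in the HOXC cluster. The stretch without a peak ran for 310830 bp, from 113155 bp to the left of the cluster to 80475 bp to its right. For the 9 HOXC genes the nearest ARID2 peak was 82670 to 197674 bp from a start, and the nearest ARID1A peak was 226093 to 297080 bp away. A stretch without a called peak does not show that the subunits were absent, since the lists hold only enrichment past the caller's threshold.

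**Figure D2:**
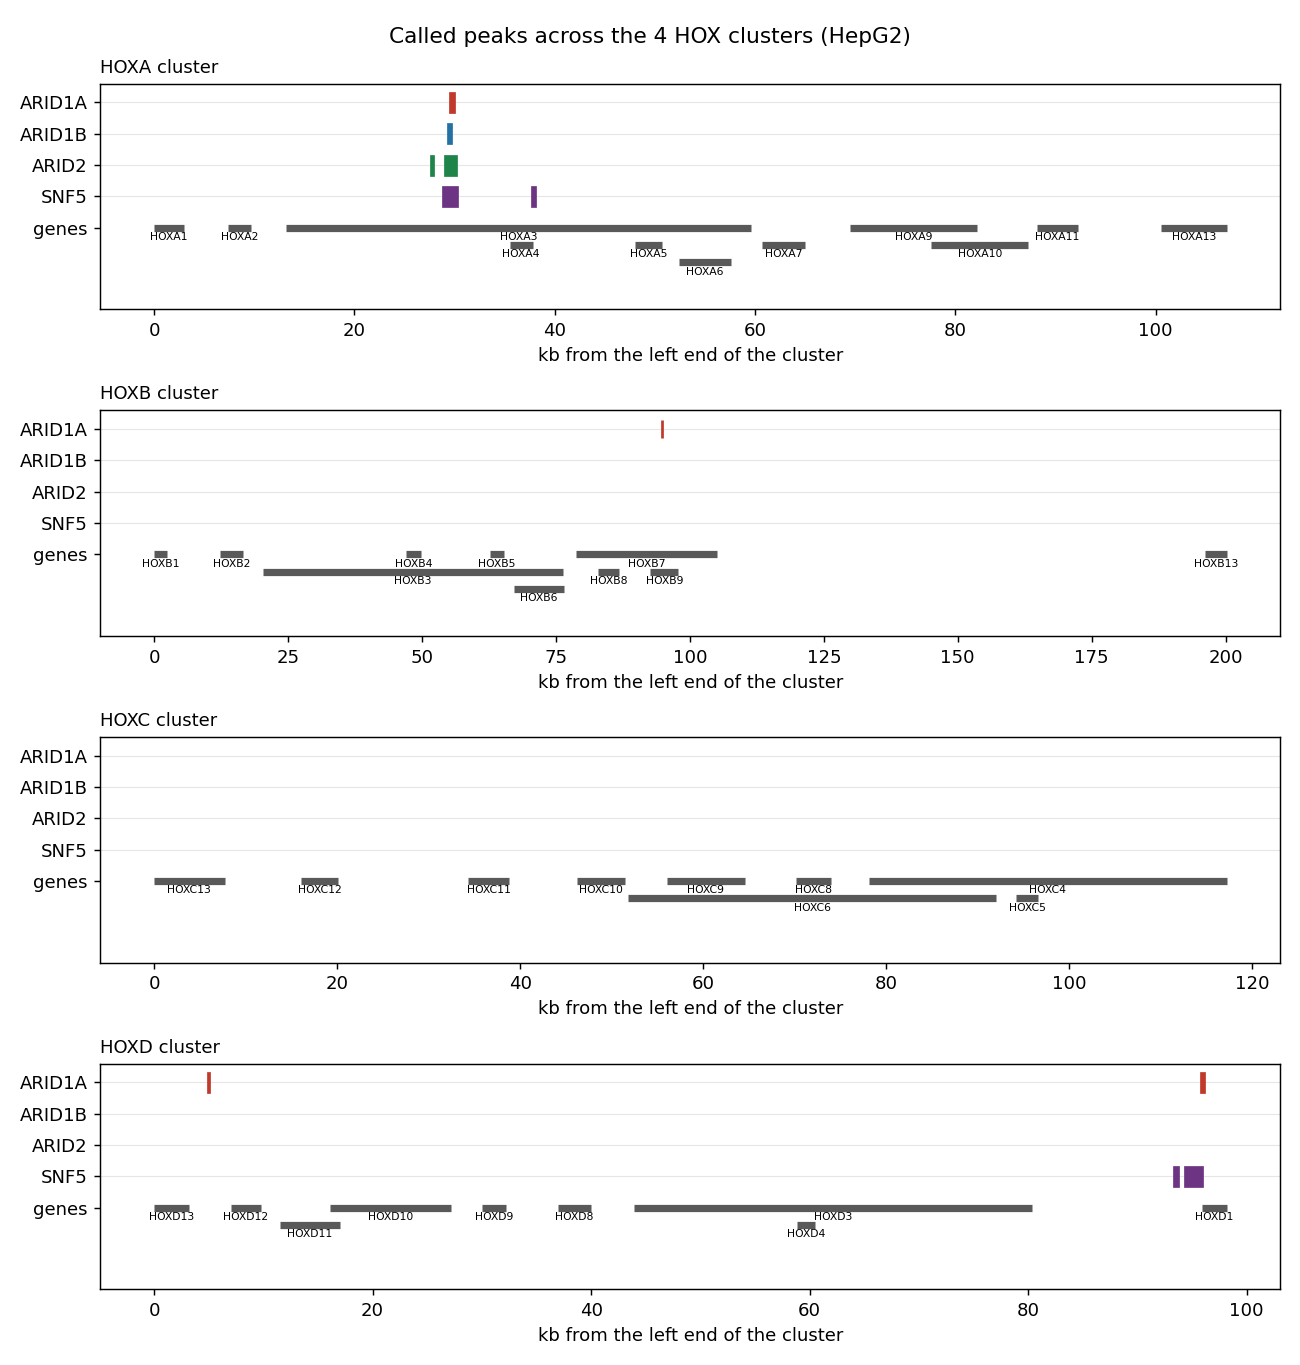
Called peaks of the 3 ARIDs and SNF5 along the 4 HOX clusters, with distance in kb from the left end of each cluster on the horizontal axis, 1 row per list and grey bars for the protein-coding HOX genes. Coloured bars carry a thin outline so that narrow peaks can be seen, which makes them look slightly wider than they are. Peaks of all 3 ARIDs occur only in HOXA. Of the ARIDs, HOXB and HOXD carry ARID1A alone. SNF5 peaks occur in HOXA and HOXD, and HOXC carries no peak of any list.

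SNF5 overlapped 4 of the 7 HOX peaks (57.1%, interval 25.0 to 84.2%), against 67.6% of peaks in the 3 lists pooled. By list this was 2 of 4 ARID1A peaks, 1 of 1 ARID1B peak and 1 of 2 ARID2 peaks, beside 71.3%, 62.9% and 67.2% of all peaks of those lists. The 3 peaks without SNF5 were those at HOXB9 and HOXD12 and the separate ARID2 peak at HOXA-AS2. The share rests on HOXA, which holds 4 of the 7 peaks. Without HOXA it was 33.3%, and requiring 50% reciprocal overlap left 14.3%.

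The promoter class held 5 of the 7 peaks (71.4%, interval 35.9 to 91.8%), against 61.7% of the pooled lists. For ARID1A this was 2 of 4, for ARID1B 1 of 1 and for ARID2 2 of 2, where the whole lists had 72.6%, 37.9% and 67.0%. Overlap with another ARID was found for 3 of 7 (42.9%, interval 15.8 to 75.0%), against 45.5% pooled. It was 1 peak in each list, where the share over the ARID1A, ARID1B and ARID2 lists was 47.6%, 40.1% and 46.9%. All 3 overlapping peaks were the HOXA-AS2 group, so without HOXA the overlap share was 0% and the promoter share was 33.3%. In each of these 3 measures the interval of the HOX peaks included the pooled share. These intervals treat the 7 peaks as independent, although 3 of them overlap at 1 site, so they can be too narrow.

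Widths of the HOX peaks ran from 80 to 1133 bp. The median was 207 bp for the 4 ARID1A peaks and 694 bp for the 2 ARID2 peaks, and the ARID1B peak was 255 bp, beside whole-list medians of 218, 189 and 164 bp. The wide ARID2 peak at HOXA-AS2 was wider than 99.0% of its list, and it alone sets the ARID2 median apart. The other 6 peaks stood between the 12.0 and 75.5 percentiles of width in their own lists.

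**Figure D3:**
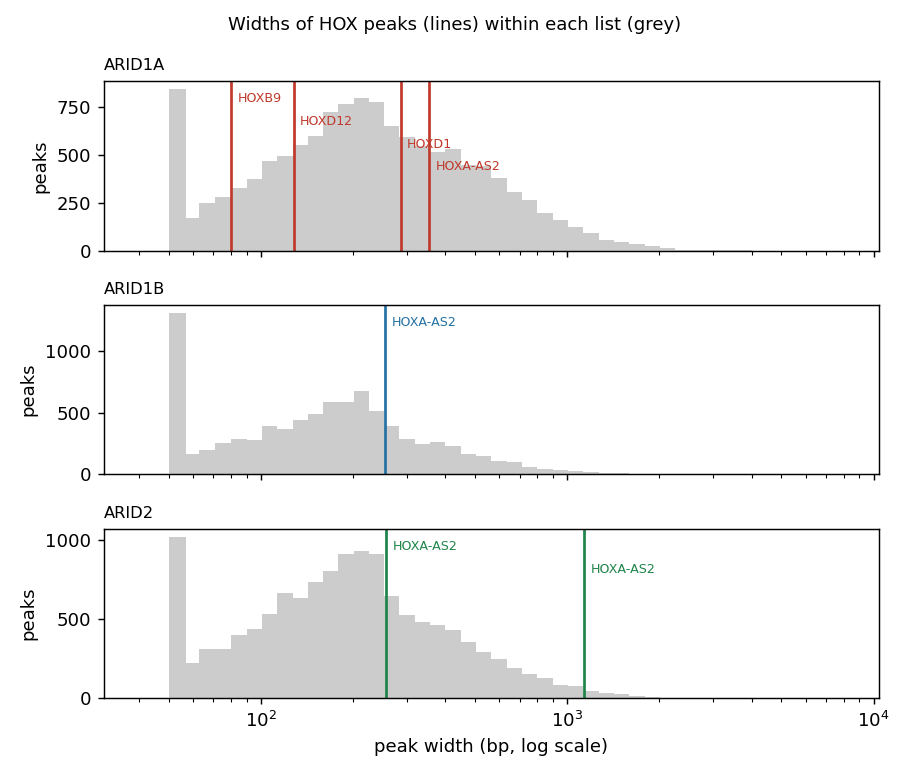
Peak width in bp on a log axis for each ARID list, with the whole list as a distribution and the HOX peaks marked. All HOX peaks lie inside the main body of their lists except the ARID2 peak of 1133 bp.

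Within the peaks, the share of G and C was 73.8% at HOXD1, 68.8% at HOXD12 and 57.5% at HOXB9, and it was between 47.3% and 53.4% for the 4 HOXA-AS2 peaks. Whole-list medians were 64.1% for ARID1A, 52.1% for ARID1B and 57.2% for ARID2. The observed to expected CpG ratio within the peaks was 0.992 at HOXD12, 0.851 at HOXD1 and 0 at HOXB9. At HOXA-AS2 it was 0.731 for ARID1A, 0.618 for ARID1B, 0.608 for the wide ARID2 peak and 0.141 for the separate one. Medians of this ratio over the whole ARID1A, ARID1B and ARID2 lists were 0.748, 0.354 and 0.617. The sequence AGNNGGCGC, part of the CTCF core, was searched on both strands of the 300 bases centred on each peak, and 0 of 7 HOX peaks held it, beside 12.5%, 6.39% and 8.75% of the ARID1A, ARID1B and ARID2 lists. TAATTA, a core that homeodomain proteins bind, was in 0 of 7 as well, beside 2.4%, 4.88% and 3.79%. Neither absence says anything about the factors themselves. Poised promoter and repressed states, which carry the Polycomb mark, were assigned to 0 of 7 HOX peaks, and in the whole lists the poised state was already rare, at 0.42%, 0.676% and 0.4% of ARID1A, ARID1B and ARID2 peaks. The repressed state was rarer still, at 0.296%, 0.55% and 0.162%.

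By gene, 3 of the 39 protein-coding HOX genes were the nearest gene of an ARID1A peak (HOXB9, HOXD1 and HOXD12), and 0 of an ARID1B or ARID2 peak. Of all 20136 protein-coding genes, 33.3% were the nearest gene of an ARID1A peak, 17.1% of an ARID1B peak, 29.7% of an ARID2 peak and 43.7% of a peak of any ARID. These shares may be too low, since 80.6% of the deposited gene names could be matched to a gene of the annotation. Paralogue groups 1 to 3, which act most anteriorly, had 1 of 8 genes assigned, groups 4 to 8 had 0 of 15, and groups 9 to 13 had 2 of 16, all by ARID1A. Read by position, an ARID1A peak lay within 1000 bp of an annotated start of 1 HOX gene, HOXD1 (2.56%, interval 0.454 to 13.2%), where 37.4% of 20136 protein-coding genes had one. For ARID1B the count was 0 of 39, which the interval limits to 8.97%, against 13.8% of all protein-coding genes. For ARID2 it was also 0 of 39, against 32.9%. SNF5 lay within 1000 bp of HOXA4 and HOXD1 (5.13%, interval 1.42 to 16.9%), against 44.0%. With any of the 3 ARIDs the share was 1 of 39, beside 44.7% of all protein-coding genes. Each HOX interval ended below the value for all genes. These intervals treat the genes of a cluster as independent, which neighbours may not be, so they can be too narrow.

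**Figure D4:**
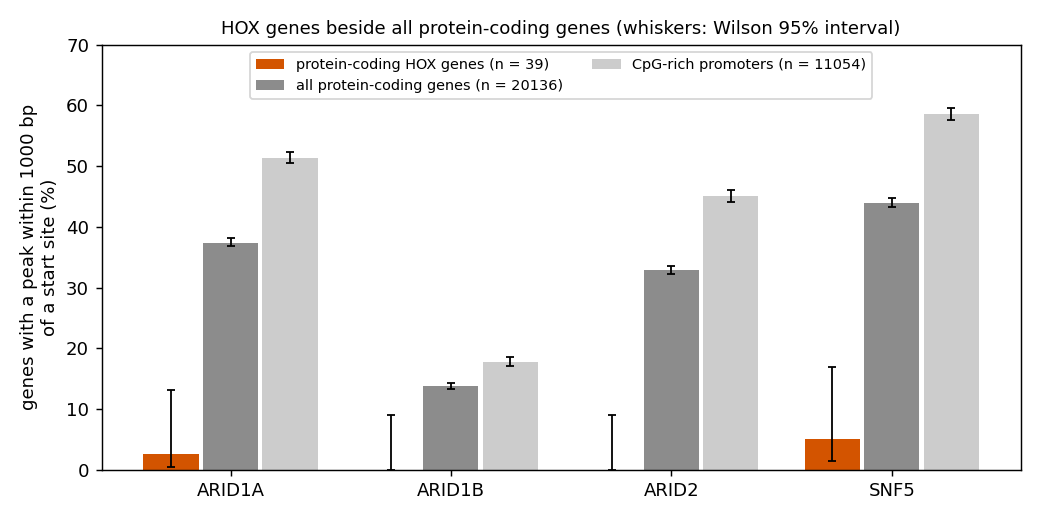
Share in percent of HOX genes, of all protein-coding genes and of those with CpG-rich promoters with a peak within 1000 bp of a start site, by list, with Wilson 95% intervals as whiskers. For each of ARID1A, ARID1B, ARID2 and SNF5 the HOX value is the lowest of the 3 bars, with HOX shares from 0 to 5.13%.

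The promoters of HOX genes were CpG-rich about as often as those of other genes. Over the 250 bases before to 50 after the gene start, 23 of 39 HOX promoters were CpG-rich (at least 50% G and C and a CpG ratio of at least 0.6), or 59.0%, beside 54.9% of all protein-coding promoters. Among the CpG-rich promoters, 1 of 23 HOX genes had an ARID peak within 1000 bp (4.35%, interval 0.772 to 21.0%), where 60.2% of the 11054 CpG-rich protein-coding genes did. Transcription of the HOX genes was not analysed here, and its part in these shares was not tested.

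Widening the window to 5000 bp raised the HOX counts to 5 for ARID1A (HOXA3, HOXB9, HOXD1, HOXD12 and HOXD13), 1 each for ARID1B and ARID2 (HOXA3) and 3 for SNF5 (HOXA3, HOXA4 and HOXD1). All protein-coding genes then stood at 40.5%, 18.1%, 36.4% and 48.1%, and the ARID1A share of HOX genes was 12.8%. The median distance from a HOX gene to the nearest peak was 31931 bp for ARID1A, 169486 bp for ARID1B, 120786 bp for ARID2 and 90406 bp for SNF5. Across all protein-coding genes these medians were shorter, at 22454.5, 82436.5, 31462 and 7403.5 bp.

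Counts per length of DNA stood differently from counts per gene, since the clusters are dense in genes. The 4 spans covered 522711 bp and held 74.6 protein-coding HOX genes per Mb, where the genome had 6.5 protein-coding genes per Mb. ARID1A had 7.65 peaks per Mb in the spans and 4.15 in the genome, ARID1B 1.91 and 2.82, and ARID2 3.83 and 4.2. For SNF5 the values were 7.65 and 6.69 peaks per Mb. Per protein-coding HOX gene, the spans had 0.103 ARID1A, 0.0256 ARID1B, 0.0513 ARID2 and 0.103 SNF5 peaks. Per protein-coding gene of any kind, the genome had 0.638, 0.433, 0.645 and 1.03 in the same order. The 2 measures differ, since the genome values count every peak wherever it lay and the HOX values only peaks inside the spans.

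SNF5 itself had 4 peaks in the clusters, 2 in HOXA and 2 in HOXD. The HOXA peak without an ARID was 300 bp wide (chr7:27170320-27170619), lay at the start of HOXA4, and had a score of 16, above 20.5% of SNF5 peaks. The HOXD peak without an ARID was 359 bp wide (chr2:177050781-177051139) within HAGLR, with a score of 17, above 28.0% of SNF5 peaks. SNF5 peaks covered 1.6% of the HOXA span, 1.94% of HOXD and none of HOXB and HOXC, or 0.693% of all spans against 0.501% of the genome. Both HOXD peaks scored below the SNF5 median of 19, so no HOXD base was covered when only peaks at or above it were kept.

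The clusters also hold 18 long non-coding RNA genes named for HOX genes or known by a name of their own, and 5 microRNA genes. MIR10A was not analysed here, and 10 further long non-coding RNA genes in the spans, most without a gene symbol, are not in these counts. Of those 10, 1 overlapped an SNF5 peak and 0 an ARID peak. ARID1A peaks overlapped 2 of the long non-coding RNA genes, HOXA-AS2 and HAGLR, and ARID1B and ARID2 peaks overlapped HOXA-AS2. SNF5 peaks overlapped 3, namely HOXA-AS2, HOXA-AS3 and HAGLR. Over all 5710 named long non-coding RNA genes the shares overlapped by ARID1A, ARID1B, ARID2 and SNF5 peaks were 17.9%, 10.8%, 16.1% and 25.3%, and these genes differ in length. No peak of the 4 lists overlapped MIR196B, MIR196A1, MIR196A2, MIR615 or MIR10B, where over 1325 microRNA genes with a MIR name the shares were 2.94%, 0.981%, 2.04% and 5.51% in the same order. HOTAIR, transcribed from the HOXC cluster, was 286262 bp from the nearest ARID1A peak, 136899 bp from ARID1B, 161549 bp from ARID2 and 136632 bp from SNF5. HOTTIP, at the posterior end of HOXA, was 75636, 75973, 75450 and 67574 bp from the nearest ARID1A, ARID1B, ARID2 and SNF5 peaks. HOTAIRM1, at the anterior end of HOXA, was closer, at 22319, 22081, 20343 and 21599 bp in the same order.

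Lists of related genes were counted in the same way. Of 9 Trithorax and H3K27 demethylase genes, 8 had an ARID peak within 1000 bp of a start (88.9%, interval 56.5 to 98.0%), and of 16 Polycomb genes 13 did (81.2%, interval 57.0 to 93.4%). KDM6B, a demethylase that removes the Polycomb mark, was the nearest gene of 8 ARID1A, 4 ARID1B and 6 ARID2 peaks. EED and SUZ12, core subunits of Polycomb repressive complex 2, were among the 5 of 16 Polycomb genes assigned at least 1 peak in every ARID list. TALE homeodomain proteins, only some of which bind DNA together with HOX proteins, had 5 of 11 genes with a peak (45.5%, interval 21.3 to 72.0%), namely PBX2, MEIS1, MEIS2, TGIF1 and TGIF2. Homeobox families outside the clusters had 12 of 62 (19.4%, interval 11.4 to 30.9%), the ParaHox genes 0 of 6 and the cluster neighbours EVX1 and EVX2 0 of 2. Counted by deposited nearest gene instead, the TALE, EVX, Polycomb and Trithorax counts were the same, and 14 of 62 other homeobox genes, 1 of 6 ParaHox genes (CDX2) and 3 of 39 HOX genes were assigned, against 43.7% of all protein-coding genes. Beside the 44.7% of all protein-coding genes, the TALE share was level, the intervals of the Polycomb and Trithorax lists began above that value and those of the HOX, ParaHox and other homeobox lists ended below it. The 60.2% of protein-coding genes with CpG-rich promoters lay inside the Polycomb and Trithorax intervals. It was still above the intervals of the HOX, ParaHox and other homeobox lists.

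**Figure D5:**
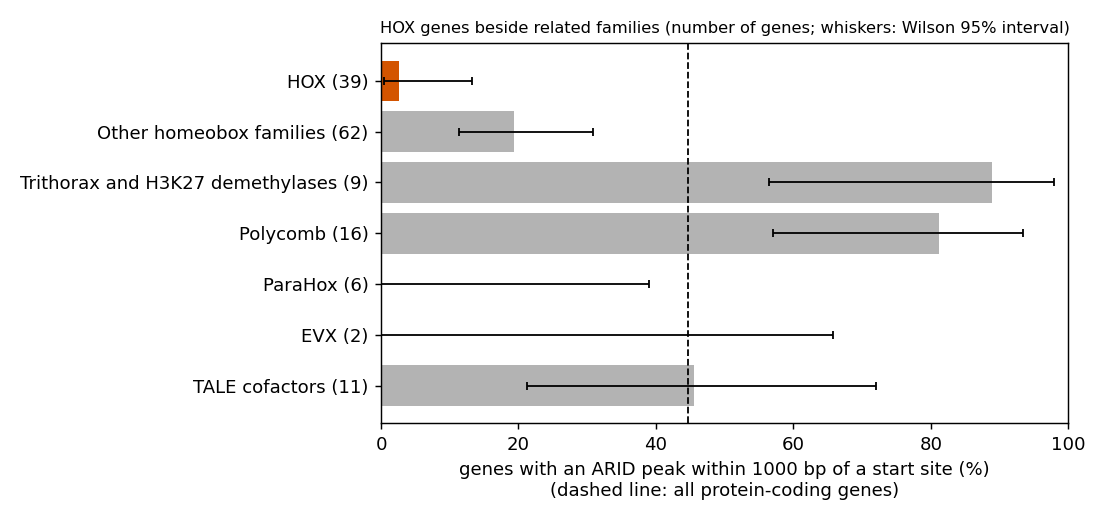
Share in percent of genes with an ARID peak within 1000 bp of a start site, for HOX genes and related gene lists, with the number of genes in brackets, Wilson 95% intervals as whiskers and a dashed line at 44.7%, the value of all protein-coding genes. ParaHox and EVX are at 0%, HOX is at 2.56%, and the Trithorax and Polycomb bars are the highest.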

How the data were processed

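Binding was measured by ChIP-seq in HepG2 cells in 9 libraries, and grouping followed the antibody in the labels. Bowtie2 was the authors' aligner (hg19, single-end reads). They dropped duplicate reads, pooled the replicates of an antibody with samtools, called broad peaks with MACS2, joined neighbouring peaks, removed blacklisted regions and assigned the nearest Gencode gene, feature class and chromatin state. Whether the input served as control was not given in the sources used here. Deposited positions and distances are in bp, with starts counted from 0 and printed here from 1. The peak score deposited by the authors, of unstated scale, was present for SNF5 alone and was used only to rank SNF5 peaks. The input library and RNA-seq were not analysed here.

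Overlap meant at least 1 bp. Gene starts came from the Gencode annotation lifted to GRCh37, with 39 protein-coding HOX genes, and every annotated start counted. Every gene with an assigned peak was named, and peaks were described in full where all 3 ARIDs overlapped, for the widest of each list, for those nearest a start in each cluster and for those without SNF5. The HOX peaks and gene lists were chosen with earlier results of these data known. Python 3.11.15, pandas 2.3.3, numpy 2.4.6, statsmodels 0.14.6, pysam 0.24.0 and matplotlib 3.10.9 were used, and the overlap and distance code was tested on simulated data. Alternatives were another overlap rule, promoter distance, SNF5 score, choice by position, joining of peaks and leaving out each cluster.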

Additional observations from a re-analysis of the deposited data

How the results depend on the processing

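Of 48 alternative values over 20 results, 42 stayed within the main interval or within 1.5 times the main count and 6 moved. The HOX peaks overlapping SNF5 went from 57.1% to 14.3% when overlap had to be reciprocal and at least 50%. The promoter share went from 71.4% to 100% at a distance of at most 5000 bp and to 33.3% without the HOXA cluster. The share overlapping another ARID went from 42.9% to 0% with a reciprocal overlap of 50% and to 0% without the HOXA cluster. SNF5 coverage of HOXD went from 1.94% to 0% with SNF5 peaks at or above the median score. Choosing peaks by position gave the same 7 peaks. The 8 alternatives on the window around gene starts were chosen after seeing the data. With 7 peaks, the intervals are wide, and an unknown depth leaves no limit of detection. No paired analysis was possible because each list was called on merged replicates and its columns carry no replicate, and leaving out a replicate could not be run for the same reason.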

Other observations

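The flanks of the clusters were counted over 200000 bp on each side. Within 200000 bp of their ends, HOXC had 1 ARID1B and 1 SNF5 peak to the left and 1 ARID2 peak to the right, and HOXD had 1 ARID1A, 1 ARID2 and 2 SNF5 peaks to the left and 1 SNF5 peak to the right. Within 200000 bp to the right of HOXB, 5 ARID1A, 4 ARID1B, 3 ARID2 and 6 SNF5 peaks were called, while 0 of any list were called within 200000 bp to its left. On both sides of HOXA the count was 0 in all 4 lists.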
